A study of Mus musculus with 6 samples.

Results

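The Ugt1a genes of mouse chromosome 1 were followed in liver RNA from mice with 1 mutant copy of Ing5. The 8 genes were taken by symbol, Ugt1a1, Ugt1a2, Ugt1a5, Ugt1a6a, Ugt1a6b, Ugt1a7c, Ugt1a9 and Ugt1a10, and all 8 were found among the 37991 Ensembl gene IDs of the count tables. Poly(A) RNA was sequenced from 3 livers heterozygous for the MommeD48 allele (genotype Ing5 MommeD48/+, Het) and from 3 livers with the genotype Ing5 +/+ (WT), all from FVB mice aged 84 days. Ing5 encodes a subunit of histone acetyltransferase complexes, and the allele comes from a screen for modifiers of transgene silencing. The type of mutation is not stated in the labels, nor is it stated that the livers of a genotype came from separate mice, so the spread between them may be partly technical. The members were selected on gene family, and the family was chosen by the Het and WT values of these same livers, among them a low unadjusted p for Ugt1a2. The fold changes of its members are therefore a description, without a test.

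UDP-glucuronosyltransferases of the endoplasmic reticulum join glucuronic acid, carried by UDP, to small fat-soluble molecules, which can then leave in bile or urine. The Ugt1a locus is built in an unusual way. Each gene has its own promoter and its own first exon, which encodes the part of the enzyme that binds the substrate, and the first exon is spliced to a set of last exons used by every gene of the cluster. The product of Ugt1a1 conjugates bilirubin, the breakdown product of haem, and those of the Ugt1a6 and Ugt1a9 genes conjugate phenols. Several cluster promoters respond to liver transcription factors such as HNF1 and to receptors that sense foreign chemicals.

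In the GENCODE M21 annotation the order along the chromosome was Ugt1a10, Ugt1a9, Ugt1a8, Ugt1a7c, Ugt1a6b, Ugt1a6a, Ugt1a5, Ugt1a2 and Ugt1a1, and all 9 genes had 1311 exonic bases in common. First exons were 879 to 954 bases long. A read that lies in the common exons cannot be assigned to a member. The counting mode and the annotation behind the counts are not given in the sources used here, so whether such reads were left out is not known. Exons that no other gene covers came to 879 bases in Ugt1a9, all of them in its first exon, against 385 in Ugt1a1 and 2142 in Ugt1a6a. Of the first exon of Ugt1a6a, 859 of 954 bases also lay in an annotated exon of Ugt1a7c on the same strand, and 95 were its own, so most of the bases particular to Ugt1a6a lay outside its first exon. Some first exons resemble each other. Those of Ugt1a6a and Ugt1a6b were 94.9% identical, and 429 of 905 stretches of 50 bases in the Ugt1a6a exon also occurred in Ugt1a6b (47.4%), so the split of reads between this pair is uncertain. The same share was 6.14% of the Ugt1a9 exon for Ugt1a10, 7.87% of the Ugt1a2 exon for Ugt1a5 and 0 of 864 stretches in the Ugt1a1 exon for any other member. A transcript gene on the opposite strand, Gm20528, covered 528 of the 913 bases of the Ugt1a1 first exon and 122 of the 926 bases of that of Ugt1a10, with 54, 62 and 69 counts in Het livers and 42, 38 and 83 counts in WT livers. Its reads could not be told apart from theirs if strand was ignored. Ing5 lies on the same chromosome, but not next door: the RefSeq order placed 136 annotated genes, 68 of them protein-coding, between Ugt1a1 and Ing5.

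The promoters show how differently the members begin. RefSeq windows of 300 bases (build GRCm38.p6, 250 bases before the annotated start and 50 from it) were found for 7 of the 8 members. Ugt1a6b was not among them. Windows were searched on both strands for GTTAATNATTAAC, the palindromic consensus of HNF1, a homeodomain factor of hepatocytes. The motif and the limit of 2 mismatches were chosen after the data had been seen. A match with at most 2 mismatches was present in the windows of Ugt1a9, Ugt1a10, Ugt1a1 and Ugt1a5, against 1.36% of 32851 promoter windows of all genes. With up to 3 mismatches allowed, the share of all windows was 8.33%. The printed windows are those of the 3 most abundant members, of Ugt1a10 for its likeness to Ugt1a9, and of Ugt1a5 and Ugt1a2, the tested members with the fold changes farthest from 0. Capitals mark the closest match to the consensus.
Ugt1a9, chr1:88070529-88070828, plus strand: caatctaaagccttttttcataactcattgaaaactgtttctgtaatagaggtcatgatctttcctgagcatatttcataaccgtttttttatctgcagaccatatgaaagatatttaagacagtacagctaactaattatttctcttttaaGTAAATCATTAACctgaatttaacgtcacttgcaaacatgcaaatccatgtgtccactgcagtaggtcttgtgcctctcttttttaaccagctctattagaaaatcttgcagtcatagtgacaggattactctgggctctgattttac
Ugt1a10, chr1:88055161-88055460, plus strand: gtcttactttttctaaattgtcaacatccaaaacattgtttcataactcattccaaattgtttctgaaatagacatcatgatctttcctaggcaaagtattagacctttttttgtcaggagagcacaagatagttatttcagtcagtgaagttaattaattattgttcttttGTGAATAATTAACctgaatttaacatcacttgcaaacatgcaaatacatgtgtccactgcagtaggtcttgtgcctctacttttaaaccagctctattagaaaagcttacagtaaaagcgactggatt
Ugt1a1, chr1:88211709-88212008, plus strand: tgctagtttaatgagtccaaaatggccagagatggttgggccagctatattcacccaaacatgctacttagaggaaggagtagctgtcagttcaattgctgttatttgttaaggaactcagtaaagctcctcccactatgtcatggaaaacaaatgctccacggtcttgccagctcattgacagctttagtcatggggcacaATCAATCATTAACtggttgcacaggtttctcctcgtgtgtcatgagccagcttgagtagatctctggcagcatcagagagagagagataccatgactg
Ugt1a5, chr1:88165762-88166061, plus strand: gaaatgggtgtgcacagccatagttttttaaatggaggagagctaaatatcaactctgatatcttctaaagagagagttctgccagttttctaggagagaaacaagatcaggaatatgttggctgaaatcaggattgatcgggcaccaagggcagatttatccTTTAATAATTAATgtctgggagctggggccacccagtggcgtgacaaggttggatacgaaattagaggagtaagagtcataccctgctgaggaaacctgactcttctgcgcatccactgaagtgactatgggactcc
Ugt1a6a, chr1:88134559-88134858, plus strand: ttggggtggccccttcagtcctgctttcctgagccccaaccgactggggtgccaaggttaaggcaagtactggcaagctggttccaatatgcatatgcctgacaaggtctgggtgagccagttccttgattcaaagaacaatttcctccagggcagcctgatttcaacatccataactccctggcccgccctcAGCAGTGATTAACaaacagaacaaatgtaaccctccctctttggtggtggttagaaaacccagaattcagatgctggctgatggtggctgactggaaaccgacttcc
Ugt1a2, chr1:88200361-88200660, plus strand: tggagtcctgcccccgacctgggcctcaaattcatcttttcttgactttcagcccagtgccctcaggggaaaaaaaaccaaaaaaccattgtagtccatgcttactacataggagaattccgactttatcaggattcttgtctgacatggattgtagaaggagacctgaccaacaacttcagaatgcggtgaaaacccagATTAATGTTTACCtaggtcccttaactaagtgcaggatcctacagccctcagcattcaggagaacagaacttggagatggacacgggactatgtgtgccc
The closest match had 1 mismatch in Ugt1a9 and Ugt1a10, 2 in Ugt1a1 and Ugt1a5, 3 in Ugt1a2 and 4 in Ugt1a6a. It lay at -98 to -86 relative to the annotated start in Ugt1a9, at -78 to -66 in Ugt1a10, at -48 to -36 in Ugt1a1 and at -57 to -45 in Ugt1a6a. The half-site GTTAAT, which is part of the consensus, was present on either strand in Ugt1a9, Ugt1a10, Ugt1a1 and Ugt1a6a and in 7.10% of all windows. GCGTG, the core bound by the aryl hydrocarbon receptor AHR, was found on either strand in Ugt1a5 alone among the 7 members and in 32.4% of all windows. The windows of Ugt1a10 and Ugt1a9 were the most alike pair, with 229 identical bases in an alignment of 323 columns and an identical run of 32 bases. Their matches to the HNF1 consensus are therefore not independent of each other. These are letter matches in short windows, and binding was not measured.

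Total counts per library were 19840541 to 22041117, and 3 counts, the most that a count of 0 allows, equalled 0.136 to 0.151 CPM, a limit that covers counting error only. CPM values are counts scaled to normalised library sizes, and errors are SD over 3 livers of a genotype. Ing5 itself had 193, 217 and 180 counts in Het livers and 182, 228 and 191 counts in WT livers, a log2 fold change of -0.05 (SE 0.11; exact two-sided permutation p = 0.8, where 0.1 is the smallest possible). Its sign turned without WT replicate 2 (0.0077). Libraries did not stand at equal distance: the chi-square per degree of freedom was 9.33 between Het replicates 2 and 3 and 22.5 to 72.1 between all other pairs. The tissue label fitted its markers, since 6 hepatocyte markers summed to 83840 to 102310 CPM in Het livers and 81180 to 95210 CPM in WT livers. Of 6 gut markers, Alpi and Cdx2 were at 0 in all 6 libraries, and the list summed to 118 to 138 CPM in Het livers and 95.6 to 113 CPM in WT livers, nearly all of it Fabp2. The 5 bile duct markers summed to 26.9 to 29.1 CPM in Het livers and 29.5 to 33.4 CPM in WT livers, most of it Spp1. Spp1 had 23.1, 23.8 and 24.9 CPM in Het livers and 28.1, 25.2 and 29.7 CPM in WT livers. Log2 fold changes were -0.21 for Spp1 and -0.09 for Sox9, but 0.14 for Krt7, 0.38 for Krt19 and 0.17 for Epcam. The part of these small differences in the results was not tested.

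Ugt1a9, Ugt1a1 and Ugt1a6a made up nearly all of the family's counts in every liver. Ugt1a9, a phenol-conjugating enzyme gene, was the most abundant, with 226, 249 and 227 CPM in Het livers and 223, 203 and 241 CPM in WT livers. Ugt1a1, the bilirubin-conjugating enzyme gene, had 104, 106 and 102 CPM in Het livers and 91.7, 118 and 104 CPM in WT livers. The 3 Het livers were close to each other in Ugt1a1 and lay inside the range of the WT livers. Ugt1a6a, the more abundant Ugt1a6 gene, had 56.0, 52.9 and 62.7 CPM in Het livers and 67.2, 66.1 and 61.4 CPM in WT livers. Het replicate 3 was above WT replicate 3 here, and the other Het livers were below every WT liver. In bulk tissue fewer cells of a type and less RNA per cell cannot be told apart.

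The remaining 5 members were far lower. Ugt1a6b had 6.22, 6.67 and 6.44 CPM in Het livers and 8.43, 8.31 and 5.66 CPM in WT livers. Ugt1a10, whose human counterpart is known mainly from the gut, had 4.97, 3.18 and 4.39 CPM in Het livers and 5.20, 3.27 and 4.47 CPM in WT livers. Both groups overlapped for these genes. Ugt1a7c was close to the limit of detection, with 3, 3 and 3 counts in Het livers and 7, 5 and 2 counts in WT livers, so its counting intervals (exact Poisson, 95%) of 0.619 to 8.77 counts per Het library and from 0.242 to 14.4 counts over the WT libraries overlapped throughout.

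**Figure D1:**
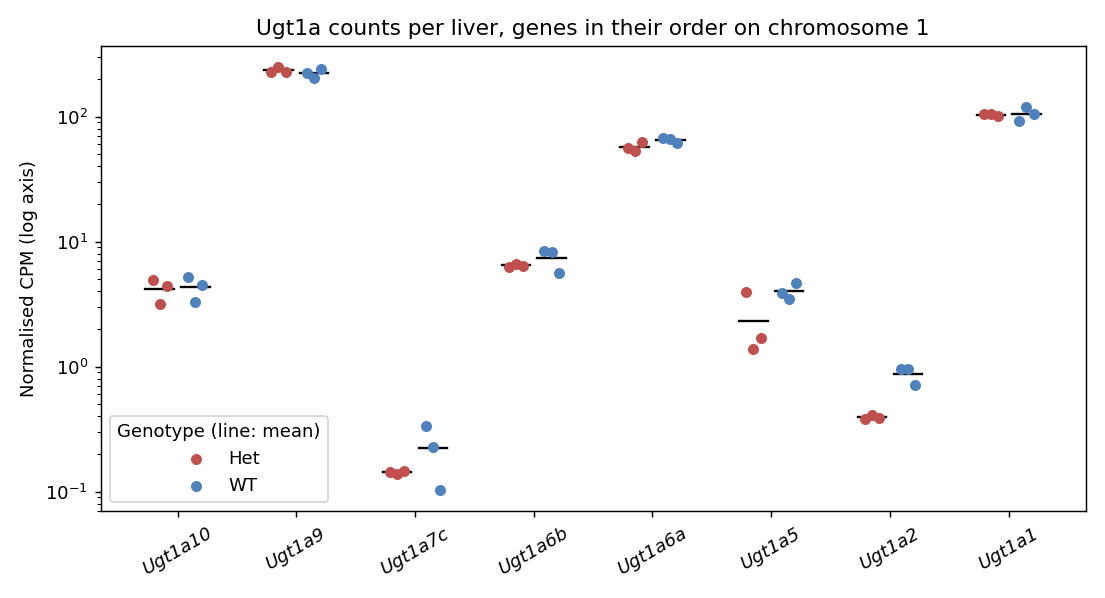
Normalised CPM of the 8 Ugt1a genes in each of 3 Het livers (red, left) and 3 WT livers (blue, right) on a log axis, with a line at each mean and genes in chromosome order. Ugt1a9, Ugt1a1 and Ugt1a6a stand above 50 CPM in every liver. Ugt1a2 is the member whose Het and WT points do not overlap, as for 8.99% of all genes tested. It rests on 8, 9 and 8 counts in Het livers and 20, 21 and 14 in WT livers, and it passed the low-count filter through WT livers alone.

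Levels were set side by side per kilobase of first exon, averaged over the 6 livers. Ugt1a9 had 259 CPM per kilobase, Ugt1a1 114, Ugt1a6a 64.0, Ugt1a6b 7.41, Ugt1a10 4.59, Ugt1a5 3.57, Ugt1a2 0.708 and Ugt1a7c 0.199 CPM per kilobase. Divided by these lengths, neighbours in the order did not overlap across the 6 livers, apart from Ugt1a10, with 3.43 to 5.62 CPM per kilobase, and Ugt1a5, with 1.55 to 5.25. The order at the top depended on the length used. Per kilobase of bases that no other gene covers, a length chosen after the data had been seen, Ugt1a1 had 271 CPM per kilobase (238 to 308 over the 6 livers) and Ugt1a9 259 (231 to 283), so their ranges overlapped, and Ugt1a6a had 28.5. The members with the most similar promoter windows stood far apart in level: Ugt1a9 had 266 ± 14.7 CPM per kilobase in Het livers and 253 ± 21.6 in WT livers, and Ugt1a10 had 4.51 ± 0.991 CPM per kilobase in Het livers and 4.66 ± 1.05 in WT livers.

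The family as a whole varied little across the 6 livers. The 8 members summed to 402, 419 and 404 CPM in Het livers and 401, 403 and 422 CPM in WT livers, means of 408 ± 9.42 and 409 ± 11.5 CPM and a fold of 0.9995 for Het over WT. Het and WT sums overlapped completely. The sums rested on 8398, 9109 and 8287 counts in Het libraries and 8319, 8887 and 8203 counts in WT libraries. The SD of Ugt1a1 alone was 2.05 CPM in Het livers and 13.4 CPM in WT livers, and that of Ugt1a9 alone 12.9 CPM in Het livers and 19.0 CPM in WT livers. WT replicate 2 had the highest Ugt1a1 and the lowest Ugt1a9 of all 6 livers.

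Shares of the summed count do not depend on library scaling. Ugt1a9 took 56.2%, 59.4% and 56.1% in Het livers and 55.6%, 50.2% and 57.1% in WT livers. Ugt1a1 took 25.9%, 25.2% and 25.1% in Het livers and 22.9%, 29.4% and 24.7% in WT livers. The 29.4% of WT replicate 2 had an exact binomial 95% interval of 28.4% to 30.3%, which covers counting error only, and no other liver reached it. Ugt1a6a took 13.9%, 12.6% and 15.5% in Het livers and 16.8%, 16.4% and 14.6% in WT livers. The mean share of Ugt1a9 was 2.95 percentage points higher in Het livers, and 0.913 points higher without WT replicate 2. That of Ugt1a1 was 0.23 points lower, and 1.63 points higher without WT replicate 2.

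**Figure D2:**
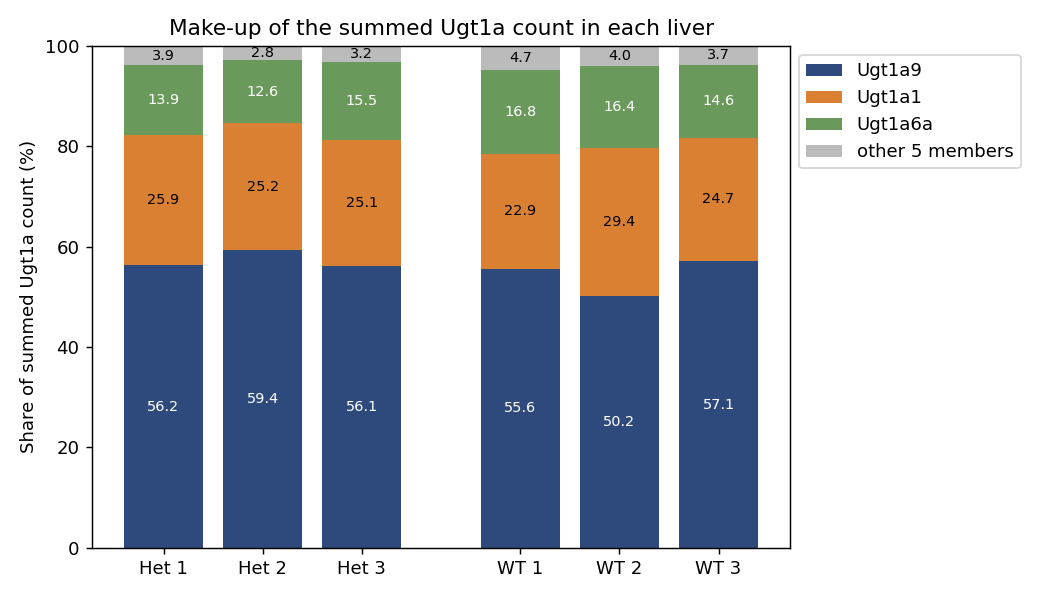
Percent of the summed Ugt1a count taken by Ugt1a9, Ugt1a1, Ugt1a6a and the other 5 members together in each liver, with the 3 Het livers left of the 3 WT livers. WT replicate 2 stands apart, with 50.2% Ugt1a9 and 29.4% Ugt1a1.

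WT replicate 2 was also the liver with the most acute-phase transcripts, which the liver makes in inflammation. The 8 acute-phase genes listed (Saa1, Saa2, Saa3, Orm1, Orm2, Lcn2, Hp and Hpx) summed to 8938, 4610 and 3985 CPM in Het livers and 10043, 21090 and 4174 CPM in WT livers. WT replicate 1, second in this sum, had the lowest Ugt1a1 of the 6 livers. The part of the acute-phase state in the Ugt1a levels was not tested.

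Of the 8 members, 7 passed the low-count filter, and 6 of these did so in both genotypes. Ugt1a2 passed through the WT livers alone, since 3 of 3 WT libraries and 0 of 3 Het libraries reached the limit of 0.475 CPM, so a tested Ugt1a2 had to be higher in WT livers. Ugt1a7c was not tested. None of the 7 (0 genes) had a Benjamini-Hochberg adjusted p under 0.05 by edgeR (quasi-likelihood, adjusted over the whole table), and the same test called 0% of 12631 genes, so nothing is read from the count. By DESeq2 and limma-voom 0 members passed as well. Over all genes 547 had an unadjusted p under 0.05 by edgeR (4.33%), and among the members Ugt1a2 was the 1 that did. That p is among the values by which the family was chosen. At an adjusted p under 0.05 DESeq2 called 13 genes (0.103%) and limma-voom 0. Het and WT livers did not overlap for 1 member, Ugt1a2, against 8.99% of all genes tested.

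The fold changes are given with their standard errors as a description. The log2 fold change of Het over WT was 0.08 for Ugt1a9 (SE 0.10), a fold of 1.05. Ugt1a1 stood at -0.01 (SE 0.10), a fold of 0.991, and Ugt1a6a at -0.18 (SE 0.09), a fold of 0.881. Ugt1a6b had a log2 fold change of -0.21 (SE 0.16), and Ugt1a10 of -0.04 (SE 0.22). The sign of Ugt1a1 turned without WT replicate 2 (0.085) or Het replicate 3 (0.0017), and that of Ugt1a10 without Het replicate 2 (0.12) or WT replicate 1 (0.11).

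Ugt1a2, a member of low abundance whose first exon is closest in sequence to that of Ugt1a5, had 8, 9 and 8 counts in Het livers and 20, 21 and 14 counts in WT livers. This was 0.383, 0.414 and 0.390 CPM in Het livers and 0.963, 0.953 and 0.720 CPM in WT livers. Every Het liver was below every WT liver, as for 4.28% of all genes tested. Its log2 fold change was -1.14 (SE 0.30), a value that the choice of the family and the filter both favoured. The depth behind it was thin. Summed over 3 livers, 25 counts in Het livers had an exact Poisson interval of 16.2 to 36.9. The 55 counts in WT livers had an interval of 41.4 to 71.6. Such intervals cover counting error only, not the spread between livers, so no difference is read from them. In the filter that asked for a CPM above 1 in 3 libraries the gene was not kept.

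Ugt1a5 split the Het livers. It had 3.92, 1.38 and 1.71 CPM in Het livers and 3.90, 3.50 and 4.68 CPM in WT livers, from 82, 30 and 35 counts in Het libraries and 81, 77 and 91 counts in WT libraries. Het replicate 1 lay among the WT livers, while Het replicates 2 and 3 were lower than any other liver. Its log2 fold change was -0.78 (SE 0.36). It was -1.38 without Het replicate 1 and -0.51 without Het replicate 2. The 3 Het livers were at nearly the same level of Ugt1a2, but from 8, 9 and 8 counts. The Poisson intervals were 3.45 to 15.8 counts for Het replicates 1 and 3 and 4.12 to 17.1 for Het replicate 2. Whether Ugt1a2 follows the split of Ugt1a5 cannot be told at this depth.

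Genes with the pattern most like that of a member were ranked among 12624 other tested genes by Pearson r of log2 CPM over the 6 livers. With so few livers and so many genes high values of r are frequent, and they are given as a description of likeness only. For Ugt1a9, where 168 genes had an r over 0.9, the first 5 were Rpl10, a ribosomal protein gene (r = 0.990), Ormdl2, a regulator of sphingolipid synthesis (0.986), Ecm1 (0.984), the acyl-CoA thioesterase gene Acot1 (0.981) and Spred2 (0.980). For Ugt1a1, where 35 genes did, they were Zfp607a (0.987), Hps6 (0.985), Syn3 (0.973), Dctn1 (0.960) and Pqbp1 (0.959). For Ugt1a5, added after its values were seen and with 214 such genes, they were the asialoglycoprotein receptor gene Asgr1 (0.993), Kiz (0.993), the fructose-pathway kinase gene Tkfc (0.991), Pnldc1 (0.987) and M6pr (0.986). Tkfc had 212, 119 and 139 CPM in Het livers and 223, 218 and 233 CPM in WT livers. The cytochrome gene Cyp2b9, also set beside Ugt1a5 after its values were seen, had 97.8, 20.8 and 20.9 CPM in Het livers and 86.2, 102 and 99.6 CPM in WT livers. Both had lower values in Het replicates 2 and 3 than in any other liver.

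**Figure D3:**
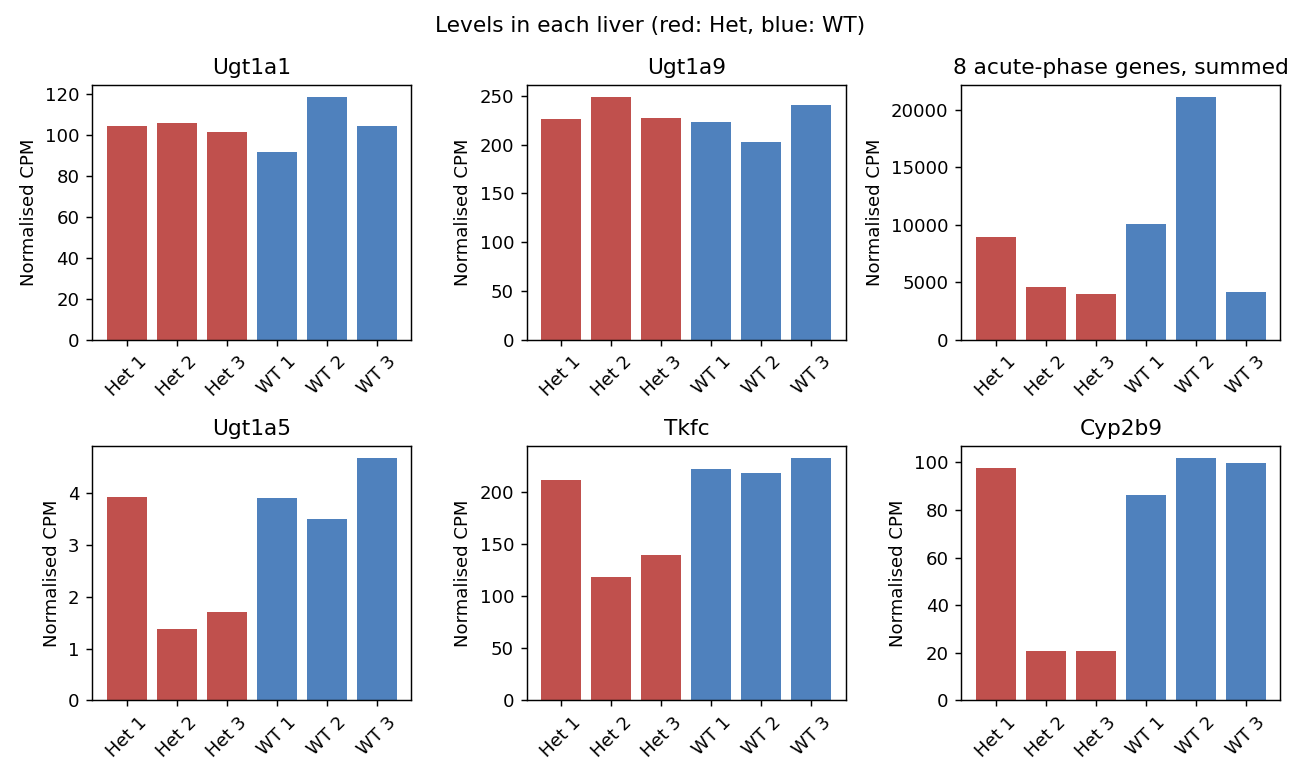
Normalised CPM in each liver (red Het, blue WT) of Ugt1a1, Ugt1a9, 8 acute-phase genes summed, Ugt1a5, Tkfc and Cyp2b9, with bars from 0. WT replicate 2 has the highest Ugt1a1, the lowest Ugt1a9 and the highest acute-phase sum (21090 CPM), and Het replicates 2 and 3 have the lowest Ugt1a5, Tkfc and Cyp2b9.

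The tested genes around the cluster had log2 fold changes on both sides of 0. Among the 5 tested genes before Ugt1a10, the photoreceptor arrestin gene Sag had 1.24, 1.29 and 2.20 CPM in Het livers and 0.915, 1.04 and 0.771 CPM in WT livers, with a log2 fold change of 0.78 (SE 0.30). Inpp5d, Atg16l1, Dgkd and Usp40 had log2 fold changes of -0.03 to 0.09. After Ugt1a1, Hjurp, the chaperone that loads the centromeric histone CENP-A, had 16.0, 11.0 and 15.7 CPM in Het livers and 23.1, 23.4 and 21.3 CPM in WT livers, with a log2 fold change of -0.67 (SE 0.14). Mroh2a, Spp2, Arl4c and Sh3bp4 had log2 fold changes of -0.53 (SE 0.36), 0.20 (SE 0.17), -0.16 (SE 0.25) and 0.39 (SE 0.34). Het and WT livers overlapped for each of them. Mroh2a was low, with 0.383 to 0.586 CPM in Het livers and 0.463 to 0.908 CPM in WT livers. Sh3bp4 was low too, with 0.488 to 0.670 CPM in Het livers and 0.360 to 0.530 CPM in WT livers. None of these 10 neighbours passed by edgeR (0 genes, Benjamini-Hochberg adjusted p = 0.712 for Hjurp). That test called 0% of 12631 genes, so nothing is read from the count. Hjurp passed with DESeq2 (adjusted p = 0.0471), which called 0.103% of all genes tested.

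**Figure D4:**
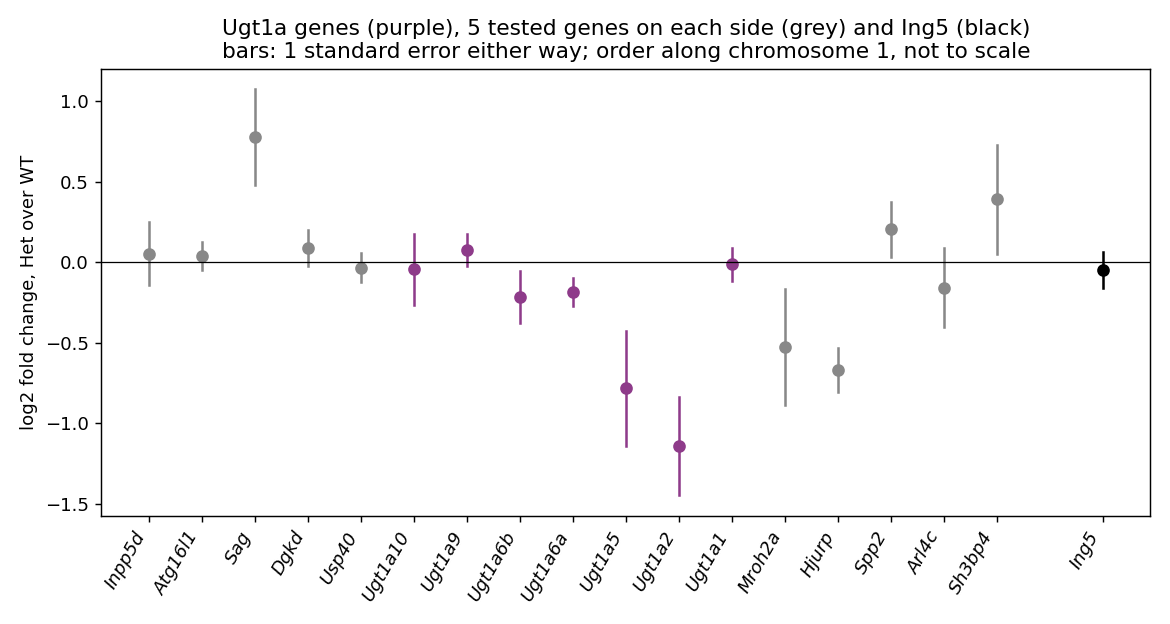
Log2 fold change of Het over WT with 1 standard error either way for 7 tested Ugt1a genes (purple), 5 tested genes on each side (grey) and Ing5 (black), in chromosome order and not to scale. Ugt1a2 at -1.14, Ugt1a5 at -0.78, Hjurp at -0.67 and Mroh2a at -0.53 lie below 0. Sag at 0.78 and Sh3bp4 at 0.39 lie above it. Ugt1a1 at -0.01, between Ugt1a2 and Mroh2a, and Dgkd at 0.09, next to Sag, lie close to 0.

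The sugar is supplied as UDP-glucuronate. Of 5 genes of UDP-glucuronate supply 0 passed the edgeR test in either direction. That test called 0% of 12631 genes, so nothing is read from a count of 0 in this list or the later ones. Of the 5 genes, 1 had higher and 4 had lower values in Het livers. The median log2 fold change was -0.05, against 0.00088 over all genes. Ugdh, which oxidises UDP-glucose to UDP-glucuronate, had 133, 102 and 116 CPM in Het livers and 142, 122 and 135 CPM in WT livers (log2 fold change -0.18, SE 0.11). Ugp2, which makes UDP-glucose, had 388, 375 and 385 CPM in Het livers and 454, 327 and 479 CPM in WT livers (-0.13, SE 0.14), and Pgm1 a log2 fold change of -0.05. The 1 gene with a higher value was Gusb (0.04), named after its values were seen, a lysosomal glucuronidase that takes glucuronic acid off rather than supplying it. Mice also turn glucuronate into vitamin C. Of the 3 genes of that branch 0 passed and all 3 had lower values in Het livers (median -0.11): Rgn at -0.11, Gulo, the last enzyme of the route, at -0.10 and Akr1a1 at -0.14, where every Het liver was below every WT liver for Gulo and Akr1a1, as for 4.28% of all genes tested.

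Among other conjugating enzymes edgeR and limma-voom called 0 genes and DESeq2 called 1, Ugt2b38, where DESeq2 called 0.103% of all genes tested. Of 13 other UDP-glycosyltransferase genes 11 were tested, and Het values were higher for 9 and lower for 2 (median log2 fold change 0.12). Ugt2b5, the highest by CPM, had 1224, 1181 and 1032 CPM in Het livers and 1069, 1072 and 1056 CPM in WT livers, and Ugt2b36 a log2 fold change of -0.03. Ugt2b38, a gene with near-identical copies and hence uncertain counts, had 19.9, 38.3 and 29.2 CPM in Het livers and 10.8, 9.76 and 14.2 CPM in WT livers (log2 fold change 1.33, SE 0.26). Its Benjamini-Hochberg adjusted p was 0.974 by edgeR, 0.84 by limma-voom and 1.47e-05 by DESeq2. By edgeR it was 0.0445 without Het replicate 1, where 10 of 12779 genes passed, and 0.2748 or more without any other library. Of 9 sulfotransferase, methyltransferase, glutathione transferase and acetyltransferase genes 0 passed, 3 had higher and 6 lower values in Het livers (median -0.05), with Gstm1 at 0.0094 and Sult1b1 at -0.26.

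On the path of bilirubin, 10 genes of haem breakdown and bilirubin transport were split 5 higher and 5 lower in Het livers, with 0 passed and a median of -0.0073. Slco1b2, an uptake transporter of the sinusoidal membrane, had 2292, 1985 and 2128 CPM in Het livers and 2410, 2335 and 1921 CPM in WT livers. Slco1a1 had a log2 fold change of 0.16. Abcc2, which exports conjugated bilirubin into bile, had 405, 457 and 469 CPM in Het livers and 441, 481 and 326 CPM in WT livers, and biliverdin reductase B, Blvrb, 86.9, 92.0 and 83.4 CPM in Het livers and 76.8, 77.6 and 92.9 CPM in WT livers. Abcc2 and Blvrb were named after their values were seen. Het and WT livers overlapped for each of these genes.

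Of 16 genes listed as regulators of Ugt1a transcription, mostly transcription factor genes, 0 passed. In Het livers 9 had higher and 7 lower values, and the median log2 fold change was 0.04. Hnf4a had a log2 fold change of -0.04 and the receptor gene Nr1i3 (CAR) of 0.04. Among targets of these factors 0 genes passed by edgeR, DESeq2 or limma-voom. Of 5 AHR targets 3 were tested, 2 with higher values and 1 with a lower value in Het livers and a median of 0.32, with Cyp1a2 at 631, 804 and 809 CPM in Het livers and 523, 449 and 826 CPM in WT livers, and with Tiparp at a log2 fold change of -0.29. The 5 NRF2 targets were split 3 higher and 2 lower, with a median of 0.012, with Gclc at 0.06, Gclm at 0.012 and Srxn1 at -0.10. All 5 CAR and PXR targets had lower values in Het livers (median -0.48). Among them Cyp2b10 had 2.73, 2.21 and 2.44 CPM in Het livers and 4.72, 2.09 and 6.17 CPM in WT livers, Cyp3a11 a log2 fold change of -0.19 and Aldh1a7 of -0.48, which is the median itself. The median was -0.87 without Het replicate 1 and -0.29 without Het replicate 2, and Cyp2b10 ran from -1.14 without WT replicate 2 to -0.46 without WT replicate 3. The 6 PPARA targets were split 4 higher and 2 lower, with a median of 0.23. The median was 0.0755 without Het replicate 1 and 0.397 without WT replicate 3. Cyp4a10 and Cyp4a14, named after their values were seen, were far higher in Het replicate 1 than in any other liver. Cyp4a10 had 673, 84.9 and 77.0 CPM in Het livers and 17.0, 126 and 61.9 CPM in WT livers. Cyp4a14 had 630, 38.3 and 54.2 CPM in Het livers and 3.66, 64.3 and 14.2 CPM in WT livers. Pdk4, a PPARA target and a kinase that inhibits pyruvate dehydrogenase, had 1.91, 1.75 and 1.81 CPM in Het livers and 2.84, 2.45 and 2.88 CPM in WT livers (log2 fold change -0.58, SE 0.18). Every Het liver was below every WT liver for Pdk4, as for 4.28% of all genes tested. No gene of these 10 lists (0 genes) passed by edgeR at a Benjamini-Hochberg adjusted p of 0.05. The same test called 0% of 12631 genes, so nothing is read from this count.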

How the data were processed

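The authors deposited whole-number counts per Ensembl gene, not normalised, in a table for each liver. The submitters' processing notes name TopHat2 2.0.11, HTSeq 0.6.1, DESeq and mm9 without their roles. How reads were counted, the strand setting and the annotation release are not given in the sources used here. RNA was extracted with Trizol from frozen liver and made into TruSeq libraries, per the labels' protocols.

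The analysis used edgeR 4.0.16 in R 4.3.3: filterByExpr by genotype (12631 genes kept), TMM normalisation (factors 0.977 to 1.02), and the robust quasi-likelihood fit with genotype as the sole factor and Benjamini-Hochberg adjustment at 0.05 over all genes. Standard errors came from each gene's F statistic. Gene names were matched for 32919 of 37991 IDs. Exon lengths came from GENCODE M21 and gene order and promoters from RefSeq GRCm38.p6, both of another build than mm9, so the promoter coordinates belong to GRCm38.p6 alone. Levels per kilobase used the first exon, in place of a planned coding length from proteins, and bases that no other gene covers as an alternative added after the data had been seen. Exact permutation was used for Ing5. Steps were tested on simulated data.

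The members, lists and tests were chosen with earlier results of these data known. Named were all members, Ing5, the 2 most abundant genes and the smallest p of each list (or called genes), the 5 tested genes on each side of the cluster, and the 5 genes most like each of the 2 most abundant members. Some genes this rule names are not reported here. Others are marked as named after their values were seen. Alternatives were DESeq2 1.42.0 and its size factors, limma-voom 3.58.1, no filter, a CPM filter, no robust estimation, library size without the 20 most abundant genes, a threshold of 0.1, the replicate number as a block and each library left out.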

Additional observations from a re-analysis of the deposited data

How the results depend on the processing

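The count of Ugt1a members past the threshold was 0 under every alternative listed, and the summed Ugt1a level kept a log2 ratio between -0.02 and 0.023. Over all genes the count of 0 became 1 with no filter on low counts and 13 with DESeq2, and it ran from 0 to 17 with a library left out, 10 without Het replicate 1 and 17 without WT replicate 3. With the replicate number as a block it was 0, and the members passed in 0 cases. Deviations of same-numbered livers correlated at -0.025, -0.078 and 0.22. The livers numbered 3 matched each other best, the other 4 did not match their own number, and the numbers were not taken to pair the livers, since that asked for a correlation over 0.1 in every pair. With a library left out, the log2 fold changes that turned sign ran from -0.11 to 0.085 for Ugt1a1, -0.21 to 0.12 for Ugt1a10, -0.12 to 0.0077 for Ing5, -0.24 to 0.0053 for Rgn, -0.055 to 0.0040 for Ugt2b36, -0.15 to 8.27e-05 for Slco1b2, -0.19 to 0.063 for Hnf4a, -0.12 to 0.18 for Nr1i3, -0.034 to 0.12 for Gclc, -0.054 to 0.049 for Gclm, -0.45 to 0.049 for Cyp3a11, -0.14 to 0.19 for Gstm1, -0.11 to 0.015 for Usp40, -0.025 to 0.079 for Atg16l1 and -0.076 to 0.17 for Inpp5d. The cause was not tested. Ugt1a9, Ugt1a6a, Ugt1a6b and Ugt1a5 kept their sign in every fit. With a library left out, list medians ran from -0.0315 to 0.0422 for haem breakdown and transport, -0.0033 to 0.0787 for regulators, -0.0572 to 0.0392 for NRF2 targets and -0.144 to 0.0746 for the sulfotransferase, methyltransferase, glutathione transferase and acetyltransferase list. Depth limits Ugt1a2 and Ugt1a7c, at 2 to 21 counts per library.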
